A study of Homo sapiens with 12 samples.

Results

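The 60 genes described here encode the SR proteins, the U2AF subunits, the SF3A and SF3B subunits, the Sm and other snRNP proteins named SNRP, and the hnRNP proteins. They are the rows of both deposited count tables whose symbol is SRSF, HNRNP, SNRP, SF3A, SF3B or U2AF followed by its letters and digits, without the symbols that end in P and digits, which is how pseudogenes are named. Of 238 matching symbols 178 were dropped in that way, leaving 60 of the 60648 genes listed: 25 hnRNP proteins, 12 SR proteins, 12 Sm and snRNP proteins, 9 SF3 subunits and 2 U2AF subunits. RNA was sequenced from 12 libraries of MOLM13 and OCIAML5, which are human acute myeloid leukemia lines, in 6 groups of 2 libraries. The groups were MOLM13 with a hairpin against PSPC1 (shPSPC1) and its control (shCTL), OCIAML5 with shPSPC1 and its shCTL, and OCIAML5 with a hairpin against PU.1 (shPU1) and a separate shCTL. All cells had received a lentivirus and were selected with puromycin or by GFP sorting, controls included. OCIAML5 was grown with GM-CSF in another medium than MOLM13, so line and medium cannot be told apart. The labels name neither the hairpin sequence nor separate cultures for the paired libraries, so p-values measure the spread between libraries, which may be technical.

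Splicing removes introns in a complex, the spliceosome, that is built anew on every intron. U1 snRNP marks the 5' splice site, U2AF and SF1 mark the 3' end of the intron, and U2 snRNP with its SF3A and SF3B subunits then holds the branch point. The Sm proteins form the ring on which these snRNPs are assembled, SR proteins mostly promote the use of exons, and hnRNP proteins coat nascent RNA and often oppose it. Many of these genes limit their own output by switching to transcripts with a poison exon, which are degraded, and SRSF2, SF3B1 and U2AF1 are recurrently mutated in myeloid neoplasms. PSPC1 is a paraspeckle protein that binds RNA and partners SFPQ and NONO. PU.1, encoded by SPI1, is an ETS-family transcription factor of myeloid cells.

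Library totals lay between 15372383 and 22757998 counts for the PSPC1 experiment and between 26305956 and 39716519 counts for the PU.1 experiment. Levels are given as CPM, counts scaled to library size after TMM normalization. PSPC1 had 27.1 and 27.7 CPM in MOLM13 with shPSPC1, against 130 and 135 CPM in its controls. In OCIAML5 with shPSPC1 it had 18.9 and 19.2 CPM, against 99.1 and 98.8 CPM. SPI1 had 47.5 and 46.2 CPM with shPU1, against 227 and 204 CPM in its controls, and PSPC1 also stood lower there, at 59.8 and 58.2 CPM against 106 and 113 CPM. Of 7 myeloid markers 6 were at or above 18.1 CPM in all libraries (PTPRC 248 to 682 CPM), and MPO lay between 0.209 and 37.7 CPM. Their sum was 1580 against 1290 CPM with shPSPC1 in MOLM13, 1120 against 858 CPM with shPSPC1 in OCIAML5 and 648 against 871 CPM with shPU1. In contrast, all 6 epithelial and erythroid markers stayed at or below 0.145 CPM and the lymphocyte and fibroblast markers at or below 3.64 CPM. All 20 genes of a proliferation list fell in each knockdown; their summed level was 943 CPM against 5440 CPM for PSPC1 in MOLM13, 1800 against 5800 CPM for PSPC1 in OCIAML5 and 3280 against 6670 CPM for PU.1 (means of 2 libraries, knockdown against control). The mitochondrial share of counts was 12.4% against 9.59% with shPSPC1 in MOLM13, 14.3% against 11.4% with shPSPC1 in OCIAML5 and 10.2% against 9.97% with shPU1. RNAs without a poly(A) tail summed to 42 against 27.5 CPM, 5.98 against 2.77 CPM and 5.42 against 7.32 CPM in these 3 pairs. The part of proliferation and of RNA quality in the results that follow was not tested, and in bulk RNA fewer cells of a kind and less RNA per cell cannot be told apart.

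Most of these genes fell in every knockdown, and a few SR protein genes rose. PSPC1 knockdown in MOLM13 lowered 40 and raised 6 of the 55 members that passed the filter on low counts, where 57% of the 16457 genes tested were called (27.6% higher and 29.5% lower; edgeR's quasi-likelihood test, Benjamini-Hochberg adjusted p under 0.05). The same knockdown in OCIAML5 lowered 32 and raised 9 of 55, where 56% of all genes were called (27.5% higher and 28.4% lower). PU.1 knockdown lowered 42 and raised 4 of 54, where 60.4% of 16861 genes were called (29.6% higher and 30.9% lower). The median log2 fold change of the members was -0.40, -0.24 and -0.42 in these 3 knockdowns, against 0.01, 0.02 and 0.02 over all genes tested. In most members the change was moderate: 5 fell at least 2-fold in MOLM13, 1 did so in OCIAML5 with shPSPC1 and 1 with shPU1, while 2 rose at least 2-fold with shPSPC1 in OCIAML5.

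**Figure D1:**
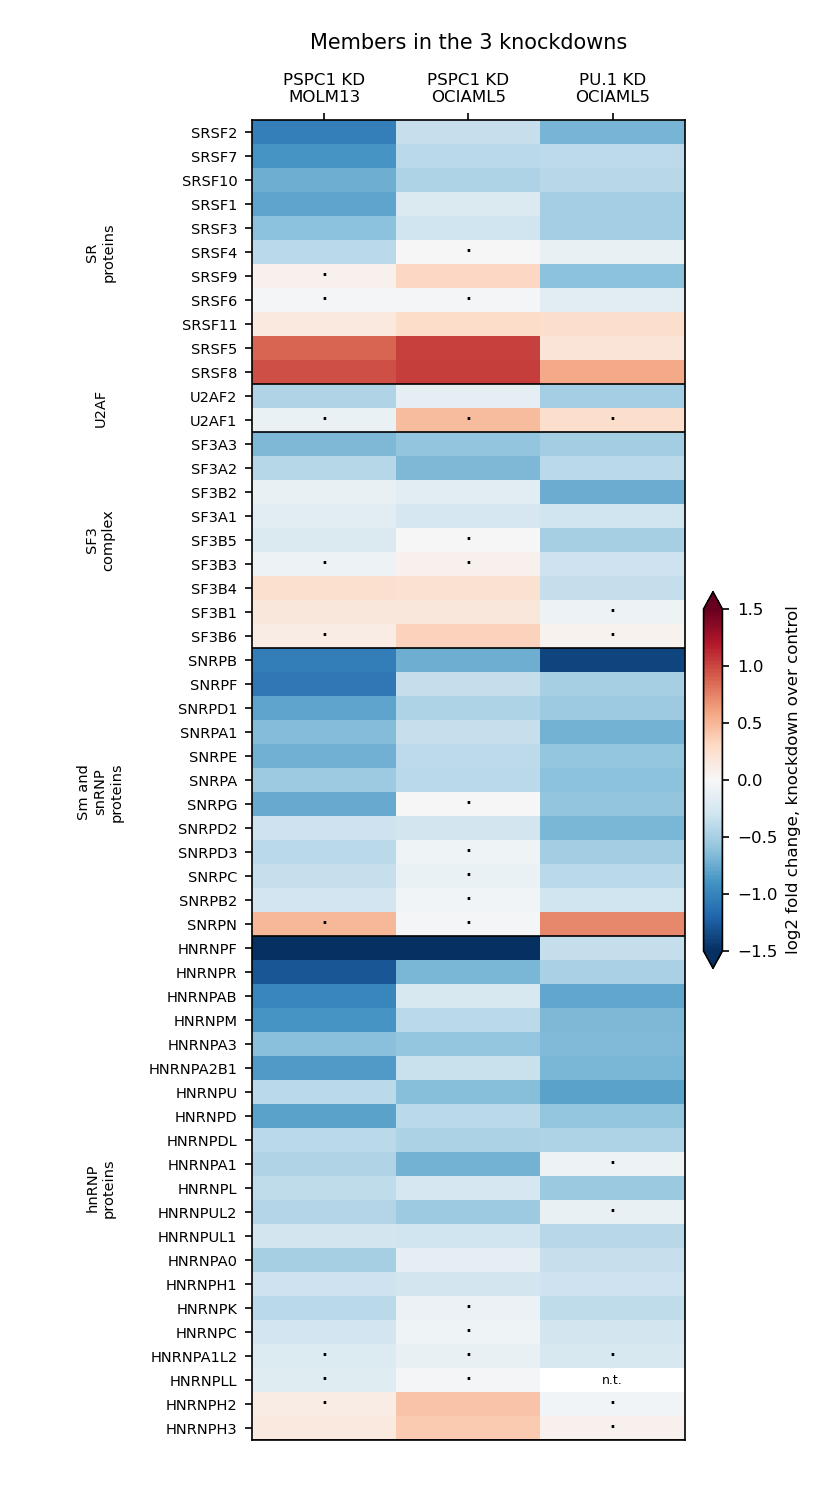
Log2 fold change (knockdown over control, colour) of the 55 members tested, in rows by class, for the 3 knockdowns in columns; a dot marks an adjusted p of 0.05 or more and n.t. a gene not tested, and colours stop at 1.5 either way. Most squares are blue; SRSF5, SRSF8 and SRSF11 are red in all 3 columns, and HNRNPF is darkest under PSPC1 knockdown.

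The 3 knockdowns share no control library. Of the 54 members tested in all of them, 30 fell in each (14.3% of the 15396 genes tested in all 3 did) and 3 rose in each (9.59% of all genes did). The 30 were 13 hnRNP, 7 Sm and snRNP, 5 SR, 4 SF3 and 1 U2AF genes. The 3 that rose were all SR genes: SRSF5, SRSF8 and SRSF11. A further 8 members fell with shPSPC1 in MOLM13 and with shPU1 but did not pass the test with shPSPC1 in OCIAML5 (3.19% of all genes did so), 4 of them Sm and snRNP genes. HNRNPCL1, HNRNPCL2, HNRNPCL3, HNRNPCL4 and SRSF12 were tested nowhere, with at most 0.544 CPM in any library; the HNRNPCL genes are close copies of each other and of HNRNPC.

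The summed level of the members was 13850 CPM in MOLM13 with shPSPC1, against 18710 CPM in its controls. It was 14830 against 18260 CPM in OCIAML5 with shPSPC1, and 14820 against 19770 CPM with shPU1. The hnRNP genes made up most of it, at 8881 ± 98 CPM against 12860 ± 140 CPM in MOLM13, 9515 ± 47 against 12750 ± 200 CPM in OCIAML5 with shPSPC1 and 9975 ± 170 against 13550 ± 250 CPM with shPU1 (SD, n = 2 per group). These were 69.1%, 74.6% and 73.6% of the control sums. The SR sum was lower with shPSPC1 in MOLM13, at 1904 ± 25 against 2186 ± 59 CPM. With shPU1 it was 1932 ± 7.5 against 2295 ± 54 CPM. In OCIAML5 with shPSPC1 it was higher, at 2165 ± 22 against 2057 ± 38 CPM. SRSF5 alone rose there by more than the sum did. The SF3 sum kept 95.6% and 95.5% of its control with shPSPC1 in MOLM13 and OCIAML5, and 79.2% with shPU1. No test was run on these sums, which rest on TMM scaling.

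**Figure D2:**
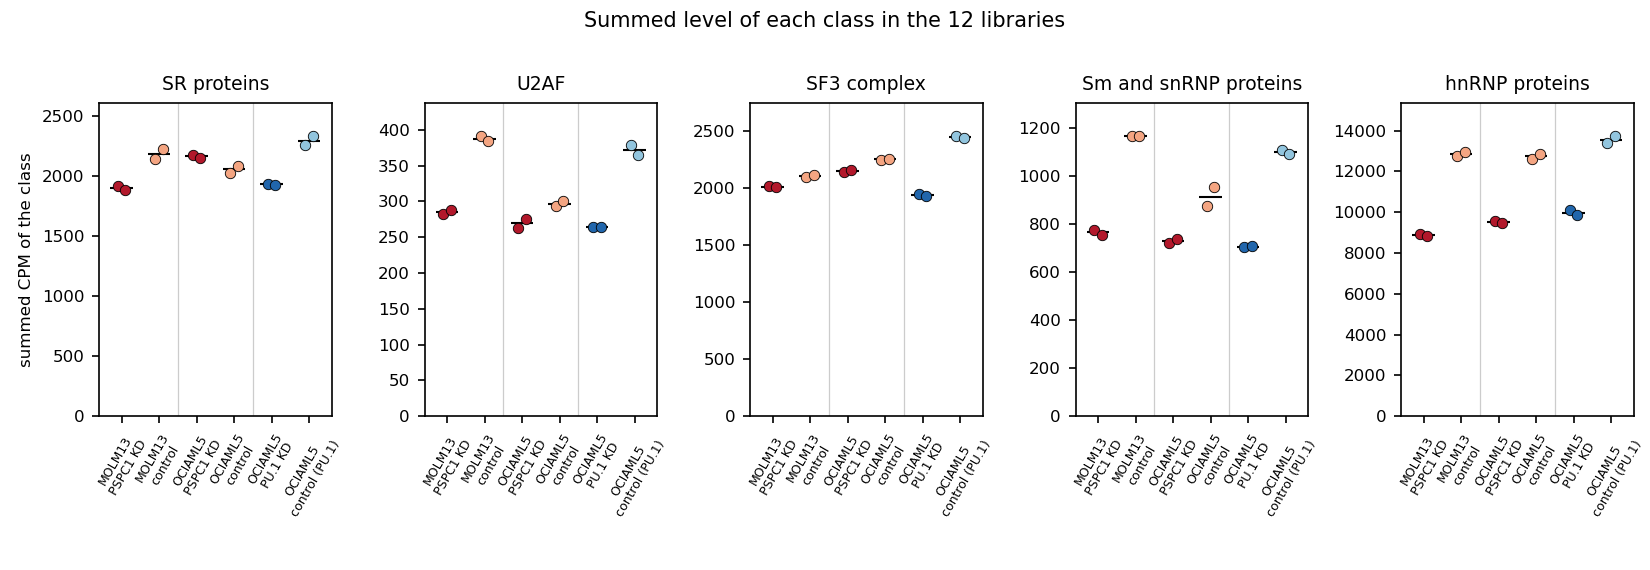
Summed CPM of each class (y axis, linear, starting at 0) in the 12 libraries, by group; points are libraries, lines are means, KD is knockdown. The hnRNP and the Sm and snRNP sums lie lower in every knockdown than in its control, and the SR sum is higher in OCIAML5 with shPSPC1.

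SNRPB, HNRNPF, SRSF5 and SRSF8 carried the largest falls and rises, and their promoters are shown for that reason (RefSeq, GRCh38.p14; 250 bases before to 50 after the annotated start, 5' to 3' on the gene's strand). Capitals mark the letters searched on both strands: the ETS core CCGGAA, the CCAAT box CCAAT of NF-Y, the E2F site GGCGGGAA, the E-box CACGTG of MYC and MAX, and the PU.1 core GAGGAA, which shares GGAA with the ETS core.
SNRPB, chr20:2470740-2471039, minus strand: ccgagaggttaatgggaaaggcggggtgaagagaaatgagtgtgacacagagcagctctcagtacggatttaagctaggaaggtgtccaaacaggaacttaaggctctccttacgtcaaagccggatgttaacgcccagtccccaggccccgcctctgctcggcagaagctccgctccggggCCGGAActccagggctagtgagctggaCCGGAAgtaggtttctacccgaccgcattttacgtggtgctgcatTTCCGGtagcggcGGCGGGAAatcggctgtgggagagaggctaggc
HNRNPF, chr10:43408808-43409107, minus strand: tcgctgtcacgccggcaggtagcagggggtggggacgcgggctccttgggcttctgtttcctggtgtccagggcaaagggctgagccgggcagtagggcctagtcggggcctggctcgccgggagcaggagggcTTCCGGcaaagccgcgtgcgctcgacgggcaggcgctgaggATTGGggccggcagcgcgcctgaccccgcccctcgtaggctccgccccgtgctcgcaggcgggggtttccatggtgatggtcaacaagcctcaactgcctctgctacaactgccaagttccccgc
SRSF5, chr14:69766892-69767191, plus strand: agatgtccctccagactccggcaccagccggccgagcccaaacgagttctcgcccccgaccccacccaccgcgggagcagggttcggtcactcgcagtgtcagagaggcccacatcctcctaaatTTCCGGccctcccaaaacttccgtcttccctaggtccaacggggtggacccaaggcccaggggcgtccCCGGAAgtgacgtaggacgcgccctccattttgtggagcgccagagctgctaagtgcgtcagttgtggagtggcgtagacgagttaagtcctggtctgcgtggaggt
SRSF8, chr11:95066627-95066926, plus strand: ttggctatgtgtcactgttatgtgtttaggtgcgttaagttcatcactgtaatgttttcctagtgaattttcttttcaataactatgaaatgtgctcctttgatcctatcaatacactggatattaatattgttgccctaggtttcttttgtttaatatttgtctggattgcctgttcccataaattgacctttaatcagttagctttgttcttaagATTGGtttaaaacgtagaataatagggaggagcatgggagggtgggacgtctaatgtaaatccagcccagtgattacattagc
The SNRPB window holds 3 ETS cores and 1 E2F site, the HNRNPF window 1 ETS core and 1 CCAAT box, the SRSF5 window 2 ETS cores and the SRSF8 window 1 CCAAT box. Over the 55 members with a promoter in the RefSeq table, 38.2% held an ETS core, against 17.6% of all 27305 promoters. By class it was 75% of SF3 and 63.6% of Sm and snRNP promoters, against 18.2% of SR and 21.7% of hnRNP promoters. The CCAAT box was in 40% of members, against 35.7% of all promoters, with 65.2% of hnRNP, 36.4% of Sm and snRNP, 18.2% of SR and 12.5% of SF3 promoters. Of the 15 hnRNP promoters with it 2 are those of HNRNPCL1 and HNRNPCL2. The E2F site was in 12.7% of members, against 3.18% of all promoters. The E-box was in 14.5% of members and 7.43% of all promoters, and the PU.1 core in 23.6% and 27.6%. Among the 28 members with a promoter that fell in all 3 knockdowns, 42.9% held an ETS core and 32.1% a PU.1 core. A match says only that the letters occur in the window. The 27305 promoters were not matched to the members for expression or base composition. HNRNPA1, HNRNPCL3, SF3B3, SNRPD1 and SRSF2 were not in that table.

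U2AF2 fell in each knockdown, while the count of U2AF1 is too uncertain to be set beside it. U2AF2, the U2AF subunit that binds the polypyrimidine tract (chromosome 19), had 274 and 278 CPM with shPSPC1 in MOLM13, against 382 and 373 CPM in controls. Its log2 fold change was -0.45 ± 0.04 (SE, here and below; adjusted p = 7.8e-13, edgeR). In OCIAML5 it had 256 and 269 CPM with shPSPC1, against 287 and 297 CPM (-0.15 ± 0.04, adjusted p = 0.0023), and with shPU1 258 and 257 CPM, against 373 and 359 CPM (-0.51 ± 0.04, adjusted p = 5.6e-18). Knockdown libraries lay below both controls each time; scaled by library size alone, the call with shPSPC1 in OCIAML5 was lost (adjusted p = 0.16), as it was without shPSPC1 library 1 (adjusted p = 0.071). U2AF1, the subunit that reads the AG at the intron end (chromosome 21, 43092956 to 43107587, GRCh38), passed the test in none of the knockdowns, at 3.79 to 10.5 CPM over the 12 libraries. Scaled by library size alone it was called higher with shPSPC1 in OCIAML5 (0.55, adjusted p = 0.024) and with shPU1 (0.41, adjusted p = 0.015). That count is uncertain, because 91.8% of the gene's 75-base stretches also occur in U2AF1L5, a copy annotated on the same chromosome. Both entries list 12 transcripts, with 11112 bases of exon for U2AF1 and 11119 for U2AF1L5. Whether U2AF1L5 is a separate gene was not tested.

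With shPSPC1 the SF3 subunits moved apart from each other: 5 of 9 fell and 2 rose in MOLM13, and 4 fell and 3 rose in OCIAML5. With shPU1 7 of 9 fell and 0 rose. The shares over all genes were 29.5%, 28.4% and 30.9% lower and 27.6%, 27.5% and 29.6% higher. SF3A3, an SF3A subunit, fell in all 3 knockdowns. With shPSPC1 it had 115 and 117 CPM against 182 and 187 CPM in MOLM13. In OCIAML5 it had 148 and 138 against 211 and 222 CPM with shPSPC1, and 148 and 140 against 201 and 210 CPM with shPU1. The log2 fold changes were -0.67, -0.59 and -0.52 with an SE of 0.05 each. SF3B1, which clamps the branch point and is the SF3 gene most often mutated in myelodysplasia, rose slightly with shPSPC1: 650 and 622 CPM against 555 and 574 CPM in MOLM13 (0.17 ± 0.04, adjusted p = 0.00024, edgeR) and 628 and 614 CPM against 547 and 554 CPM in OCIAML5 (0.17 ± 0.04, adjusted p = 0.00021). Neither group pair overlapped. With shPU1 SF3B1 had 519 and 506 CPM, against 527 and 553 CPM, and did not pass (-0.08 ± 0.04, adjusted p = 0.083), although it did without shCTL library 1 (adjusted p = 0.0041) and with no filter on low counts (adjusted p = 0.033). SF3B4, an RNA-binding SF3B subunit, went opposite ways in the 2 experiments: it rose with shPSPC1 to 118 and 115 CPM in MOLM13, against 98.6 and 98.7 CPM, and to 170 and 178 CPM in OCIAML5, against 153 and 144 CPM, but had 136 and 134 CPM with shPU1, against 177 and 170 CPM. Its log2 fold changes were 0.24, 0.23 and -0.36. SF3B2, which contacts RNA near the branch point, had 229 and 233 CPM with shPU1, against 395 and 381 CPM in controls, the largest SF3 fall in any knockdown (-0.75 ± 0.04, adjusted p = 5.2e-26, edgeR). With shPSPC1 it fell by 0.17 in OCIAML5 and by 0.11 in MOLM13 on the log2 scale, but the OCIAML5 call was lost with library size alone (adjusted p = 0.063) and the MOLM13 call in 5 alternatives, DESeq2 among them (adjusted p = 0.098 to 0.21).

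Most Sm and snRNP genes fell. With shPSPC1 in MOLM13 11 of 12 Sm and snRNP genes fell, in OCIAML5 7 of 12, and with shPU1 11 of 12, with medians of -0.60, -0.31 and -0.56. Of all genes tested 29.5%, 28.4% and 30.9% were called lower in these knockdowns. SNRPB, which encodes the SmB and SmB' subunits and is known to limit its own output through a poison exon (chr20:2461634-2470853), had 108 and 103 CPM in MOLM13 with shPSPC1, against 227 and 208 CPM, and 86.4 and 86.5 CPM in OCIAML5, against 136 and 152 CPM. With shPU1 it had 57.9 and 59.8 CPM, against 164 and 144 CPM. The knockdown libraries were below both controls in all 3 pairs, and the log2 fold changes were -1.04 ± 0.06, -0.73 ± 0.06 and -1.38 ± 0.05 (adjusted p = 7e-22, 8.8e-16 and 8.3e-34, edgeR). Among all genes tested, 3.45% were called lower by at least as much with shPU1. An overlapping gene shares 13.6% of the 75-base stretches of SNRPB. SNRPF, another ring subunit, had 31.6 and 34.7 CPM with shPSPC1 in MOLM13, against 69.2 and 70 CPM, a fall of 1.07 on the log2 scale; in OCIAML5 it had 50 and 52.5 CPM, against 59.4 and 71.8 CPM (-0.36 ± 0.08). SNRPD1 fell by 0.79, 0.46 and 0.54 in the 3 knockdowns. SNRPN encodes SmN, the near relative of SmB used in brain, and was the exception: it lay between 1.77 and 4.16 CPM in all libraries and rose with shPU1 (0.72 ± 0.25, adjusted p = 0.012), with 22.2% of its 75-base stretches shared with overlapping genes such as SNURF. Its call was lost in DESeq2 (adjusted p = 0.054), without shCTL library 1 (adjusted p = 0.058) and without shPU1 library 2 (adjusted p = 0.061). It is named here because it was 1 of the 4 members that rose with shPU1, after its values were seen. SNHG14, a gene that overlaps SNRPN on the same strand, had 145 and 147 CPM with shPU1, against 101 and 102 CPM in controls. The part of SNHG14 reads in the SNRPN count was not tested.

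SR genes divided into falling and rising members. In MOLM13 with shPSPC1 6 of 11 fell and 3 rose, in OCIAML5 5 fell and 4 rose, and with shPU1 8 fell and 3 rose. Of all genes tested 29.5%, 28.4% and 30.9% were called lower and 27.6%, 27.5% and 29.6% higher. The share of SR genes that rose was thus near that of all genes in MOLM13 and with shPU1. SRSF5, an SR protein first met in rat as a delayed early gene of regenerating liver (chr14:69726900-69772005), had 425 and 425 CPM in MOLM13 with shPSPC1, against 225 and 241 CPM, and 462 and 447 CPM in OCIAML5, against 223 and 227 CPM. With shPU1 it had 246 and 250 CPM, against 214 and 222 CPM. No knockdown library overlapped its controls, and the rises were 0.87 ± 0.04, 1.02 ± 0.04 and 0.19 ± 0.04 on the log2 scale (adjusted p = 5.5e-23, 1.3e-25 and 1e-04, edgeR). In OCIAML5 with shPSPC1, 9.28% of all genes tested were called higher by at least as much. SRSF8, a gene close in sequence to SRSF2 (chr11:95067197-95071224), rose by 0.97 ± 0.08 in MOLM13 with shPSPC1, at 57.3 and 58.7 CPM against 30.4 and 28.6 CPM. It rose by 1.04 ± 0.08 in OCIAML5, at 82.8 and 85.1 CPM against 39.1 and 42.8 CPM, and by 0.57 ± 0.07 with shPU1, at 63.6 and 58 CPM against 41.6 and 40.4 CPM. SRSF2 itself (chr17:76734115-76737374) fell in the same libraries: 93.1 and 84.8 CPM against 180 and 183 CPM in MOLM13 (-1.03 ± 0.06, adjusted p = 1.7e-21), 130 and 124 against 152 and 169 CPM in OCIAML5 (-0.34 ± 0.06, adjusted p = 6.7e-07), and 128 and 125 against 205 and 205 CPM with shPU1 (-0.70 ± 0.05, adjusted p = 3.3e-22). SRSF2 and SRSF8 thus went opposite ways, and 1.14% of the 75-base stretches of SRSF8 occur in any other gene. SRSF1, SRSF3, SRSF7 and SRSF10, further SR proteins that bind exons, fell in all 3 knockdowns, by 0.62 to 0.88 in MOLM13, by 0.22 to 0.46 in OCIAML5 with shPSPC1 and by 0.39 to 0.51 with shPU1 on the log2 scale. An overlapping gene shares 48.2% of the 75-base stretches of SRSF1. SRSF11, an SR-related protein, rose by 0.15, 0.28 and 0.26, but in MOLM13 not without shPSPC1 library 1 (adjusted p = 0.19) or shCTL library 1 (adjusted p = 0.12). SRSF9 had 128 and 134 CPM in OCIAML5 with shPSPC1, against 99.4 and 112 CPM, and 86.3 and 90.2 CPM with shPU1, against 138 and 132 CPM, a rise of 0.31 with shPSPC1 and a fall of 0.61 with shPU1 on the log2 scale.

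**Figure D3:**
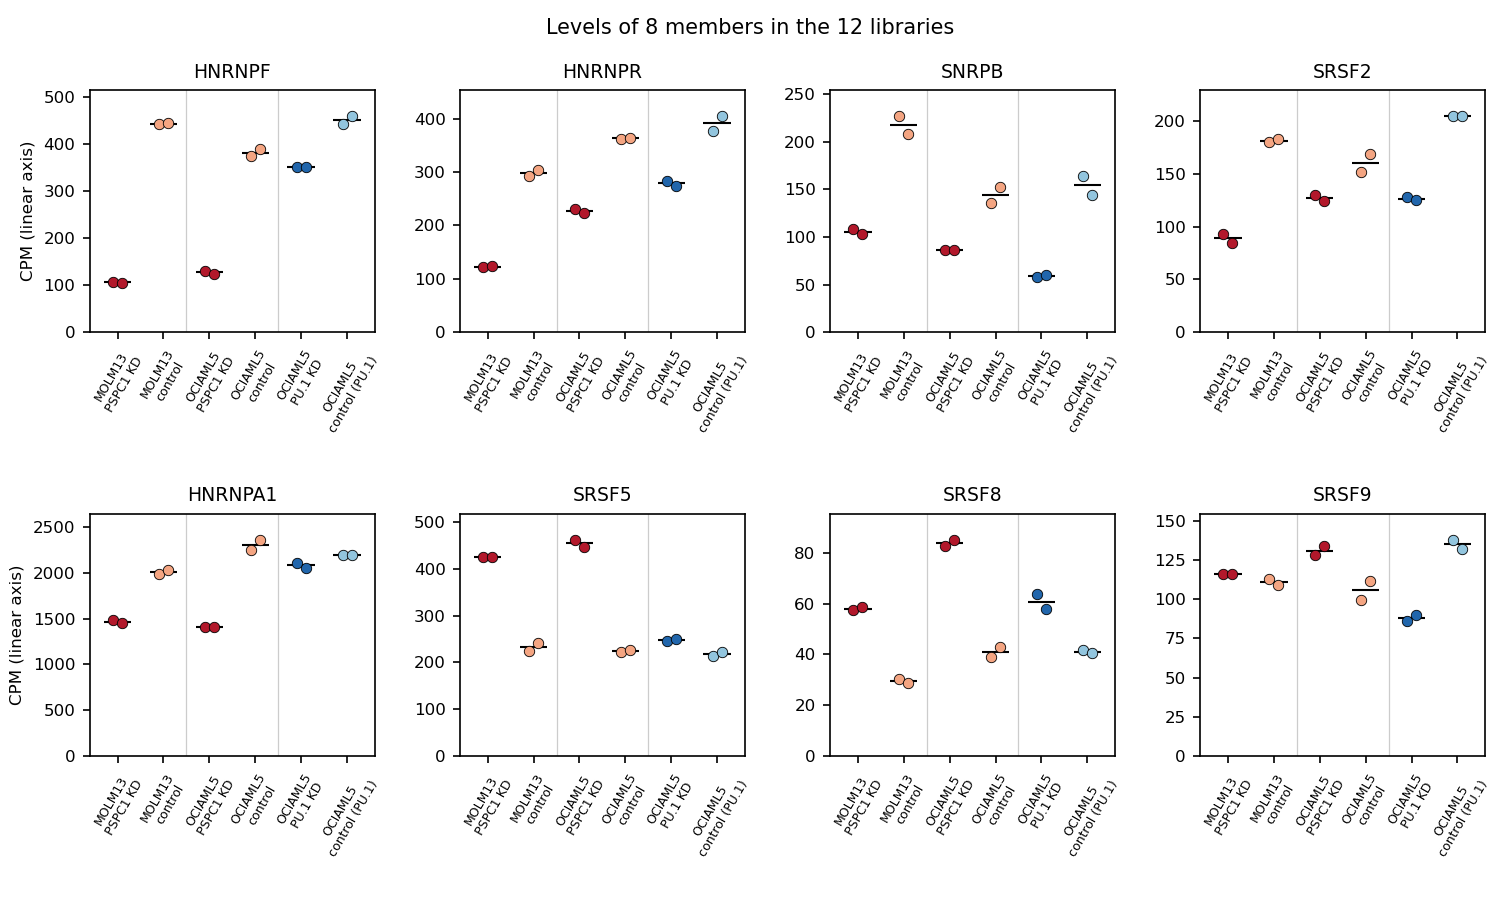
CPM (y axis, linear, starting at 0) of 8 members in the 12 libraries, by group; points are libraries, lines are means, KD is knockdown. HNRNPF lies between 105 and 131 CPM with shPSPC1 and between 374 and 460 CPM in all controls; SRSF5 and SRSF8 lie higher in every knockdown than in its controls.

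Among hnRNP genes HNRNPF changed most. HNRNPF (chr10:43385617-43409166, GRCh38) encodes hnRNP F, which binds G-rich runs and is a paralog of the hnRNP H proteins. It had 107 and 105 CPM in MOLM13 with shPSPC1, against 442 and 444 CPM, and 131 and 123 CPM in OCIAML5, against 374 and 389 CPM. With shPU1 it had 351 and 351 CPM, against 443 and 460 CPM. The libraries with shPSPC1 stood far below all others, and the log2 fold changes were -2.06 ± 0.05, -1.58 ± 0.05 and -0.36 ± 0.04 (adjusted p = 1.3e-36, 2e-32 and 1.2e-12, edgeR). In MOLM13 568 genes, 3.45% of those tested, and in OCIAML5 721 genes, 4.38%, were called lower by at least as much. No other gene in GENCODE 29 holds a 75-base stretch of HNRNPF. Its paralogs moved by smaller amounts, in both directions: HNRNPH2 rose with shPSPC1 in OCIAML5, at 93.4 and 103 CPM against 70.2 and 75.5 CPM (0.43 ± 0.07; a readthrough gene shares 13.5% of its 75-base stretches), HNRNPH3 rose by 0.39 there and by 0.15 in MOLM13, and HNRNPH1 fell by 0.31, 0.28 and 0.31 in the 3 knockdowns. The MOLM13 call of HNRNPH3 was lost without either shCTL library or shPSPC1 library 1 (adjusted p = 0.053 to 0.094).

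HNRNPR, an RNA-binding paralog of SYNCRIP, had 122 and 124 CPM in MOLM13 with shPSPC1, against 293 and 304 CPM, and 230 and 223 CPM in OCIAML5, against 362 and 364 CPM. The falls were 1.28, 0.68 and, with shPU1, 0.49 on the log2 scale. SYNCRIP, also known as hnRNP Q and not a member by symbol, fell by 1.27, 0.96 and 0.54. HNRNPA3, of the same A/B family as HNRNPA1, fell by 0.63, 0.58 and 0.66 in the 3 knockdowns. HNRNPA1, a shuttling repressor of splice sites, had 1480 and 1450 CPM in MOLM13 with shPSPC1, against 1990 and 2030 CPM, and 1410 and 1410 CPM in OCIAML5, against 2250 and 2360 CPM (-0.45 ± 0.04 and -0.71 ± 0.04). With shPU1 it had 2110 and 2050 CPM, against 2190 and 2190 CPM, which did not pass (adjusted p = 0.053, edgeR), but did in 6 alternatives, DESeq2 among them (adjusted p = 0.0039 to 0.043). Of the 75-base stretches of HNRNPA1 20% occur elsewhere, mostly in its 75 listed pseudogenes. HNRNPU, the nuclear scaffold protein SAF-A, had 983 and 938 CPM with shPU1, against 1650 and 1680 CPM, and HNRNPAB 320 and 313 CPM, against 541 and 546 CPM; these were the deepest hnRNP falls with shPU1, at -0.80 ± 0.04 and -0.78 ± 0.04 on the log2 scale. HNRNPC and HNRNPK, abundant proteins that bind uridine-rich and cytosine-rich RNA, fell with shPSPC1 in MOLM13 (-0.29 and -0.40) and with shPU1 (-0.27 and -0.38) but did not pass in OCIAML5 with shPSPC1 (-0.06 and -0.09). Without shCTL library 1 both passed there (adjusted p = 0.01 for HNRNPC and 5.6e-05 for HNRNPK), and HNRNPK also did with no filter on low counts (adjusted p = 0.04).

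The log2 fold change with shPSPC1 was lower in MOLM13 than in OCIAML5 for most of the members that differed. Tested as a difference of log2 fold changes, MOLM13 minus OCIAML5, it was lower for 29 and higher for 3 of 55 members, where 30.5% of 16457 genes were called (12.5% higher and 18% lower). The members' median difference was -0.24, against -0.06 over all genes. A lower difference was not always a deeper fall. HNRNPH2, SF3B6 and SRSF9, among the lower ones, rose with shPSPC1 in OCIAML5 and did not pass in MOLM13. By class 9 of 12 Sm and snRNP genes, 7 of 11 SR genes and 11 of 21 hnRNP genes were lower, and 1 of 9 SF3 genes. The Sm and snRNP count was 4 in DESeq2 and without MOLM13 shPSPC1 library 2, and 5 without MOLM13 shCTL library 2 or OCIAML5 shCTL library 1. SNRPG, a ring subunit, had 45.5 and 48.1 CPM in MOLM13 with shPSPC1, against 76.4 and 82.3 CPM, but 55.3 and 57.5 CPM in OCIAML5, against 55.3 and 58.2 CPM, a difference of -0.75 ± 0.10 (adjusted p = 7.3e-08, edgeR). In OCIAML5 the groups overlapped. HNRNPAB (-0.74), SNRPF (-0.71) and SRSF2 (-0.69) followed. HNRNPA1 (0.26), HNRNPU (0.24) and SF3A2 (0.24) were the 3 that fell more in OCIAML5; the call for SF3A2, a U2 snRNP subunit, was lost when any of 3 libraries was left out, with a difference of 0.14 without OCIAML5 shPSPC1 library 1. All 20 proliferation genes also differed in this direction, with a median difference of -0.93, and their part in the result was not tested.

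**Figure D4:**
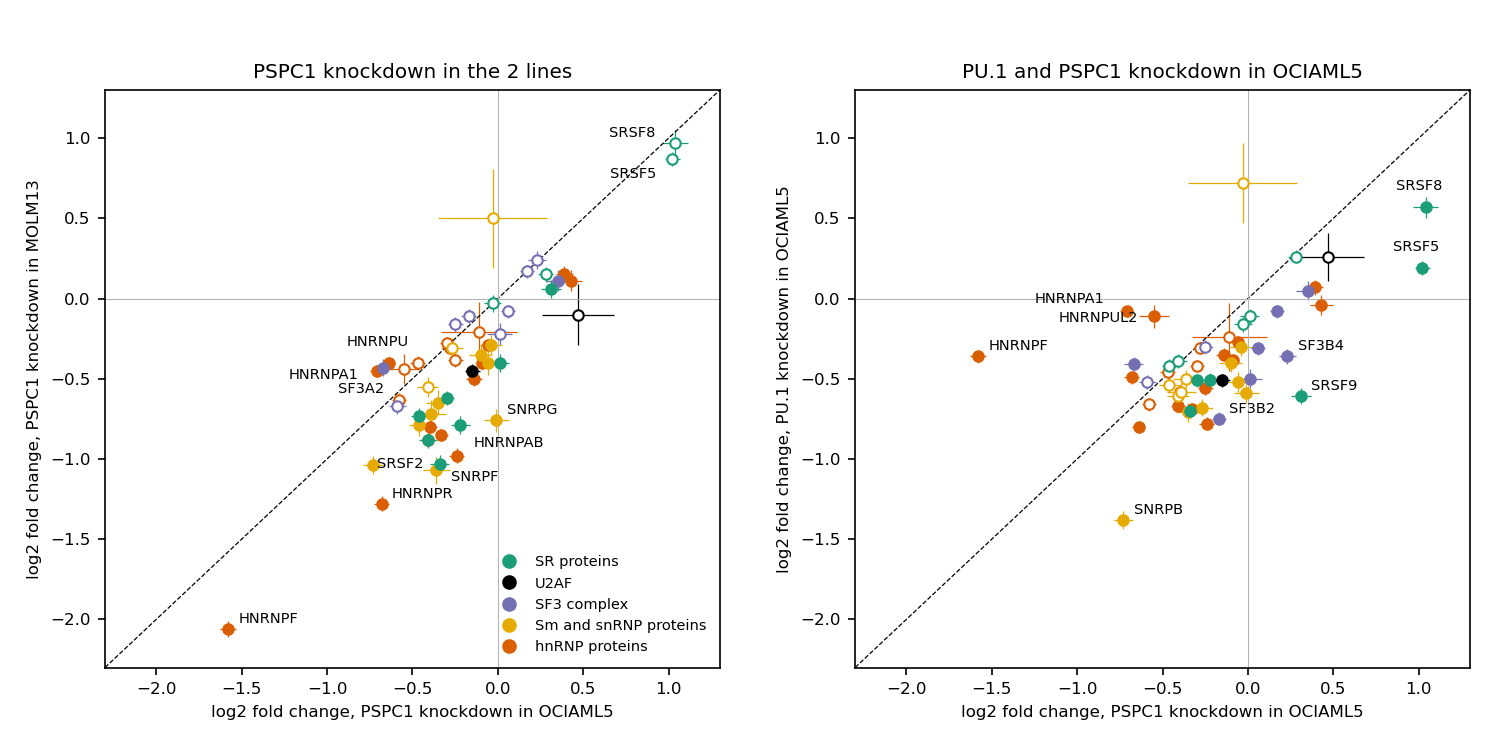
Left, log2 fold change with shPSPC1 in MOLM13 (y) against OCIAML5 (x); right, log2 fold change with shPU1 (y) against shPSPC1 (x) in OCIAML5. Points are members (HNRNPLL left out) with SE bars, coloured by class in both panels, filled where the 2 changes differ at an adjusted p under 0.05; most filled points lie below the dashed line of equal change, and HNRNPF lies above it on the right.

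In OCIAML5 the PU.1 and PSPC1 effects differed for 36 members: PU.1 minus PSPC1 was lower for 31 and higher for 5 of 54, where 45.6% of 17159 genes were called (22.8% higher and 22.9% lower). The median difference was -0.20, against 0.00 over all genes. The 5 higher differences were those of HNRNPF (1.23 ± 0.06, adjusted p = 4.5e-21, edgeR), HNRNPA1 (0.65), HNRNPUL2 (0.46), SF3A2 (0.28) and HNRNPR (0.21), all of which fell more with shPSPC1. SF3A2 was not called without OCIAML5 shPSPC1 library 1 (adjusted p = 0.053), HNRNPR was not called with no filter on low counts (0.18, adjusted p = 0.16), and HNRNPUL2 shares 42.8% of its 75-base stretches with a readthrough gene. The deepest differences below 0 were those of SRSF9 (-0.90 ± 0.08), SRSF5 (-0.81 ± 0.06), SNRPB (-0.64 ± 0.09) and SF3B4 (-0.57 ± 0.07). Proliferation genes went the other way in this contrast, with 16 of 20 higher and 1 lower.

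Scaling bears on each knockdown, and most on that of PU.1. For shPSPC1, library size alone moved the median log2 fold change over all genes to 0.05 in MOLM13, against 0.01 with TMM. In OCIAML5 it moved to 0.10, against 0.02. The members' median was then -0.35 against -0.40 in MOLM13 and -0.16 against -0.24 in OCIAML5. With library size alone in place of TMM, the median log2 fold change over all genes was 0.17 with shPU1, against 0.02, and 6583 genes were higher and 3995 lower, against 4983 and 5206. Under it 40 members fell and 7 rose with shPU1, and SRSF4, which fell by 0.11, was reversed to 0.04 (adjusted p = 0.51).

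Without knockdown the lines differed in 36 of these genes, 65.5% of those tested, which was near the share of all genes. Between MOLM13 and OCIAML5 controls, which are also the controls of the PSPC1 effects, 22 members were higher and 14 lower in MOLM13 of 55, where 60.6% of all genes were called (30% higher and 30.7% lower). HNRNPLL, a regulator of CD45 splicing in lymphocytes and a paralog of HNRNPL (chr2:38561978-38603586), had 60.2 and 57.4 CPM in MOLM13 controls, against 0.163 and 0.126 CPM in OCIAML5 controls. These were 2280 against 5 counts, a ratio of 404 with a 95% interval of 173 to 1240 that covers counting error only. With shPSPC1 it was 54.8 and 49.5 CPM in MOLM13 against 0.209 and 0.0556 CPM in OCIAML5, and in MOLM13 it did not pass (-0.18, adjusted p = 0.11, edgeR), but did in a fit of that line's 4 libraries alone (adjusted p = 0.044). In OCIAML5, at 5 and 1 counts with shPSPC1 against 3 and 2 in controls, a change was not detectable at this depth. Of 12 Sm and snRNP genes 6 differed, all of them higher in MOLM13 controls. Among them was SNRPB2, the U2 snRNP protein B'', at 130 and 140 CPM against 68 and 77.1 CPM (0.90 ± 0.06, adjusted p = 5.5e-18, edgeR). HNRNPA1L2 was higher by 0.90, with 44.2% of its 75-base stretches in other genes, mostly HNRNPA1. SF3B4 had 98.6 and 98.7 CPM in MOLM13 controls, against 153 and 144 CPM (-0.59 ± 0.05), followed by SRSF8 (-0.47), SF3A1 (-0.43) and HNRNPUL2 (-0.31). SRSF2 was higher by 0.18 (adjusted p = 0.0036), though not without OCIAML5 shCTL library 1 (adjusted p = 0.12), and SF3B1 did not pass (0.04 ± 0.04).

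U2AF1 had 8.77 and 10.5 CPM in MOLM13 controls, against 5.49 and 3.79 CPM in OCIAML5 controls, a difference of 1.04 ± 0.21 (adjusted p = 2.4e-05, edgeR). Its copy U2AF1L5 had 0.228 and 0.179 CPM in MOLM13 controls, against 7.39 and 2.59 CPM in OCIAML5 controls. The 2 entries together had 9 and 10.7 CPM in MOLM13 controls, against 12.9 and 6.39 CPM in OCIAML5 controls, and the groups then overlapped. Reads that match both entries may be in neither count, so this sum need not be the whole level of U2AF1. The part of the split of reads between the copies in the U2AF1 difference was not tested.

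**Figure D5:**
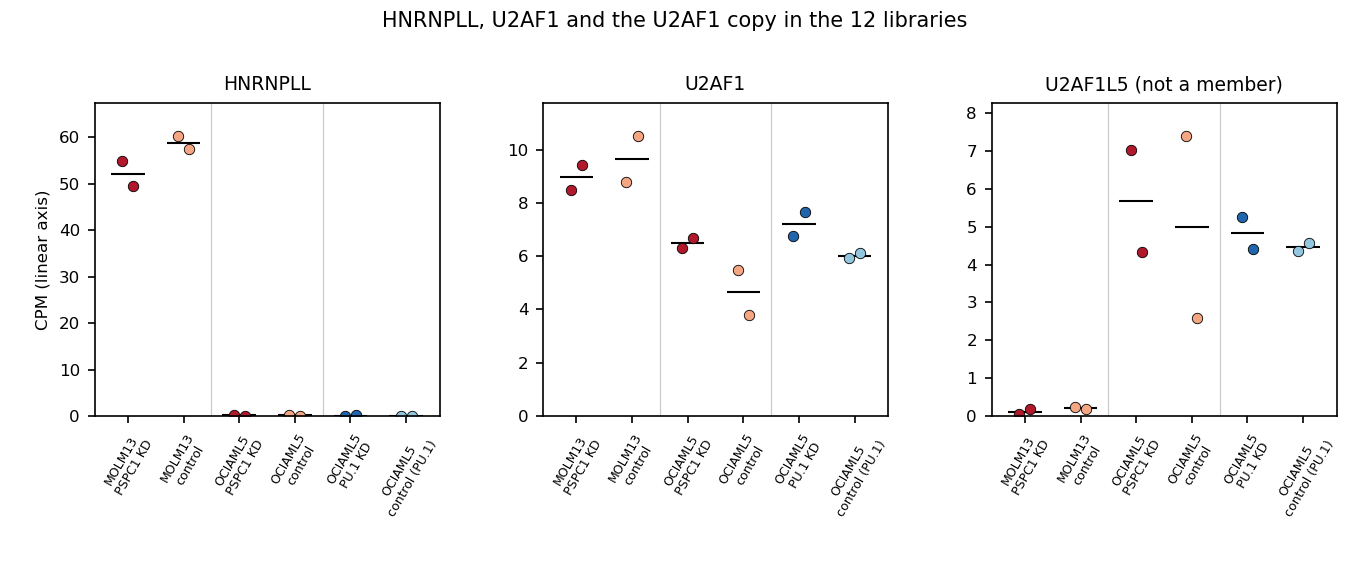
CPM (y axis, linear, starting at 0) of HNRNPLL, U2AF1 and its copy U2AF1L5 in the 12 libraries, by group; points are libraries, lines are means, KD is knockdown. HNRNPLL is near 0 in all 8 OCIAML5 libraries, and U2AF1L5 in all 4 MOLM13 libraries.

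Levels can be set between genes only per length. The length used joins the exons of all annotated transcripts, those that retain an intron included, so the ranks depend on the annotation. It was 22512 bases for HNRNPU and 5093 bases for HNRNPA1. Per kilobase of annotated exon HNRNPA1 was highest in all 6 groups, with 289 CPM per kb in MOLM13 with shPSPC1, against 395 in its controls, 277 against 454 in OCIAML5 with shPSPC1, and 408 against 430 with shPU1. HNRNPK and HNRNPA2B1 were among the first 4 in all 6 groups and HNRNPAB in the 4 OCIAML5 groups, and SNRPB was the 4th in MOLM13 controls with 170 CPM per kb. GENCODE 29 lists many transcripts of these genes as degraded by nonsense-mediated decay or as retaining an intron: 48.2% of 114 for the SR genes, 46.6% of 73 for SF3, 31.1% of 289 for hnRNP and 22.1% of 86 for Sm and snRNP genes. Counts per gene pool such transcripts with coding ones, and isoforms were not analysed here.

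Other splicing factors were counted by 11 lists; medians are log2 fold changes with shPSPC1 in MOLM13, shPSPC1 in OCIAML5 and shPU1, against 0.01, 0.02 and 0.02 over all genes, of which 27.6%, 27.5% and 29.6% were called higher and 29.5%, 28.4% and 30.9% lower. Genes that build the Sm ring, the SMN complex and its partners, fell in 13, 9 and 11 of 16 cases and 1 rose in each knockdown (medians -0.61, -0.50 and -0.33); STRAP, an SMN complex partner, fell by 1.34, 0.99 and 0.40. Of 15 proteins of U5 and U4/U6 snRNPs 10, 10 and 13 fell and 2, 3 and 0 rose (medians -0.30, -0.25 and -0.46), among them USP39 with shPSPC1, at 31.8 and 33.3 CPM against 93.5 and 95.6 CPM in MOLM13 and at 35.6 and 39.2 CPM against 90.9 and 89.1 CPM in OCIAML5. USP39 also fell with shPU1 (-0.86). PRPF8, the catalytic core protein, fell by 0.70 with shPU1, rose by 0.14 with shPSPC1 in OCIAML5 and did not pass in MOLM13 (-0.04). LSM ring genes fell in 6, 3 and 5 of 8 cases and rose in 0, 1 and 1 (medians -0.49, -0.14 and -0.33). Of 8 U1 and LUC7L genes 4 rose and 2 fell with shPSPC1 in MOLM13, and 5 rose and 1 fell in OCIAML5; LUC7L2 rose by 0.67 and 0.44 there and did not pass with shPU1 (0.01). With shPU1 1 rose and 3 fell (medians 0.17, 0.21 and 0.03).

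Of 10 kinase, phosphatase and import genes that act on SR proteins 4 rose and 4 fell with shPSPC1 in MOLM13, 5 rose and 3 fell in OCIAML5, and 3 rose and 4 fell with shPU1 (medians -0.07, 0.22 and -0.06). CLK1, a nuclear SR kinase, rose by 0.77, 0.73 and 0.78 in the 3 knockdowns. SRPK1, the cytoplasmic kinase that sends SR proteins into the nucleus, fell in each, with log2 fold changes of -1.44, -0.76 and -0.45. In the minor spliceosome, which removes the rare U12-type introns, 3 of 9 genes rose and 3 fell in MOLM13, 4 rose and 3 fell in OCIAML5 with shPSPC1, and 3 rose and 3 fell with shPU1 (medians 0.12, 0.04 and -0.02); RNPC3 rose by 1.23, 1.19 and 0.39, and SNRNP25 fell in each (-0.97, -0.55 and -1.35). U2 and A complex factors fell in 8, 8 and 10 of 14 genes and rose in 5, 5 and 3 (medians -0.48, -0.30 and -0.29), RBM5 by 0.75, 0.77 and 0.37. The PRPF19 and activation complex had 4, 4 and 7 of 15 lower and 2, 6 and 2 higher (medians -0.07, 0.09 and -0.10), with PRPF19 itself lower in each (-0.71, -0.82 and -0.69). Of the DEAH helicases and step 2 factors 5, 3 and 6 of 9 fell and 2 rose in each knockdown (medians -0.23, -0.04 and -0.29), and of the exon junction complex and SRRM genes 5, 5 and 6 of 10 fell and 2, 4 and 2 rose (medians -0.19, -0.05 and -0.31); EIF4A3, the core of that complex, fell by 0.76, 0.60 and 0.76. The remaining regulators fell in 15 of 23, 13 of 23 and 14 of 22 genes and rose in 3, 7 and 3 (medians -0.28, -0.15 and -0.38), and QKI fell in each knockdown (-0.14, -0.20 and -1.25).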

How the data were processed

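The authors deposited raw gene counts in 2 tables, 8 libraries for PSPC1 and 4 for PU.1. Per the submitters' processing notes Trim Galore 0.6.7, STAR 2.7.10a, HTSeq 2.0.2, DESeq2 1.36.0 and GRCh38 were used. The sources used here give no roles, annotation or strand setting. Per the labels' protocols the libraries came from a stranded mRNA kit.

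Counts were tested with edgeR 4.0.16 in R 4.3.3 (filterByExpr, TMM, quasi-likelihood F test, adjusted p under 0.05 over all genes tested). There was 1 model per table, with 4 and 2 residual degrees of freedom, and 1 for the 8 OCIAML5 libraries joined. The biological coefficient of variation was 4.73%, 4.08% and 4.5%. No 2 libraries were identical; within a group, variance over genes was 2.62 to 5.35 times counting noise. CPM were scaled by TMM. Members and lists were chosen with earlier results of these data known. Named with values were SRSF2, SF3B1, U2AF1, up to 4 called members each way per comparison with the largest change (group mean of 5 CPM or more), up to 5 each way that changed in all 3 knockdowns, and of other lists the 2 called genes with the smallest adjusted p per knockdown. Other members are named as examples chosen after their values were seen. Sharing of 75-base stretches was counted in GENCODE 29 transcripts; all 60 members were matched. Alternatives were library size or RLE scaling, other count filters, DESeq2 1.42.0, fewer libraries and a replicate block. The script was tested on simulated data. Figures were drawn in matplotlib 3.10.9.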

Additional observations from a re-analysis of the deposited data

Results flagged for a closer look

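The response to PSPC1 knockdown differed between MOLM13 and OCIAML5 by the test of the difference itself for 32 members, of which 29 had a lower and 3 a higher log2 fold change in MOLM13. The lowest differences were those of SNRPG (-0.75), HNRNPAB (-0.74), SNRPF (-0.71) and SRSF2 (-0.69), and the higher ones those of HNRNPA1 (0.26), SF3A2 (0.24) and HNRNPU (0.24). Leaving out single libraries gave 23 to 32 lower and 2 or 3 higher.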

How the results depend on the processing

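Over all alternatives and members 4300 results kept their direction and side of the threshold, 127 lost their call, 57 gained one and 1 was reversed. The reversed result was SRSF4 with shPU1, at 0.04 with library size alone. With that scaling 7 members rose with shPU1, against 4; no other count over all members moved by over 1.5 times. Of counts by class above 1, the 9 Sm and snRNP genes with a lower PSPC1 effect in MOLM13 were 4 in DESeq2, and 4, 5 and 5 without MOLM13 shPSPC1 library 2, MOLM13 shCTL library 2 or OCIAML5 shCTL library 1. The 11 hnRNP genes with a lower PU.1 minus PSPC1 difference were 7 without shPU1 library 2, and the 4 SR genes higher in MOLM13 controls were 2 without OCIAML5 shCTL library 1. Leaving out single libraries gave these counts of members. With shPSPC1 in MOLM13 39 to 41 fell and 4 to 6 rose, and with shPSPC1 in OCIAML5 31 to 35 fell and 9 or 10 rose. With shPU1 41 to 45 fell and 3 or 4 rose. The PU.1 minus PSPC1 difference was lower for 24 to 33 and higher for 4 or 5, and MOLM13 controls were higher for 20 to 27 and lower for 13 or 14. Same-numbered libraries did not deviate together (correlations of 0.00805, 0.000712 and -0.0763), so the numbers were not taken to pair them. With a replicate block 40, 32 and 41 members fell in the 3 knockdowns and 6, 10 and 4 rose. U2AF1, at 3.79 to 6.67 CPM in OCIAML5 of the PSPC1 experiment, was called higher with shPSPC1 without shCTL library 1 (adjusted p = 0.014) and not without library 2 (adjusted p = 0.49); with the replicate block it was called higher (0.48, adjusted p = 0.049).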
